A study of Homo sapiens with 4 samples.

Results

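Integrins are the cell's main receptors for the extracellular matrix, and each is a dimer of an alpha and a beta subunit that crosses the membrane. The 10 subunit genes described here, ITGA2, ITGA3, ITGA4, ITGA5, ITGA6, ITGAV, ITGB1, ITGB3, ITGB5 and ITGB8, were chosen by name, and all 10 were among the 19238 genes of the deposited count table. They make up the ITGB1 receptors for collagen, laminin and fibronectin and the ITGAV receptors for vitronectin, fibronectin and latent TGF-beta. A receptor reaches the cell surface only as a pair, so the level of an alpha subunit is read beside that of its beta partner. In melanoma, integrins are known for their part in attachment, migration and growth at distant sites, and gain of the ITGAV-ITGB3 receptor is a classical mark of invasive growth.

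Droplet-based 3' single-cell RNA sequencing was applied to 4 human melanoma lines of common descent. WM239A is the parental line, labelled poorly metastatic, and the other lines are its subclones. Of these, 113/6-4L is described as prone to metastasis to the lung, and 131/4-5B1 and 131/4-5B2 as prone to metastasis to the brain. Each line was 1 library without a replicate, and no treatment or genetic change is named for any of them. Cell names in the table end in a suffix from 1 to 4, and no name, label or file ties a suffix to a line, so no lines were compared. The cells of each suffix are called barcode sets 1 to 4 and are described as unlabelled samples, with values in the order of sets 1 to 4.

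The sets held 1779 to 2140 cells and 71182648 to 71915542 UMIs (unique molecular identifiers, each standing for 1 captured RNA molecule). The median cell had 33152.5 to 41131 UMIs. A barcode occurred under more than 1 suffix in 39 cases, which involved 78 of 8173 cells. Of 8 melanocyte markers, 7 reached 10 CPM in a set (a gene's UMIs summed over the cells of a set, per 1000000 UMIs of that set), and their list summed to 6946 to 9873 CPM. No marker of leukocytes, platelets, endothelium or epithelium reached 10 CPM, and none of these lists summed to more than 2.98 CPM. Of 4 fibroblast markers in the table, LUM alone reached 10 CPM, at 12.7, 2.18, 0.182 and 0.407 CPM, so this marker was highest in the set in which ITGA3, ITGA4 and ITGB8 were highest; its part in those results was not tested.

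The start regions of 3 subunits are shown first, because ITGA4 and ITGB8 varied most over the sets and ITGB1, the most abundant member, varied least. ITGB1 has a second window, which is described but not printed. Each is the RefSeq sequence of the 250 bases before a gene's start on build GRCh38.p14, written 5′ to 3′ on the gene's strand, with motif matches on either strand in capitals. ITGA4 lies at chr2:181457136-181457385 on the plus strand, ITGB8 at chr7:20330650-20330899 on the plus strand and ITGB1 at chr10:32958231-32958480 on the minus strand.
ITGA4: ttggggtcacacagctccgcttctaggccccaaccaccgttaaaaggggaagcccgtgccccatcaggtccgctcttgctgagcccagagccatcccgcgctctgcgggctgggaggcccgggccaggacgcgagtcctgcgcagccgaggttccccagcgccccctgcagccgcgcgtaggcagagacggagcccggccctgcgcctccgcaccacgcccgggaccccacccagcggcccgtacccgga
ITGB8: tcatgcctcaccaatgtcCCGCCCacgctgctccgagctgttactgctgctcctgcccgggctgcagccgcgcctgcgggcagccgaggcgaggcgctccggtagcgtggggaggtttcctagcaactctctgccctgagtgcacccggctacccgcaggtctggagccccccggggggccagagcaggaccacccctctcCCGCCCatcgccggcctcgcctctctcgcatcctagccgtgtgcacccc
ITGB1: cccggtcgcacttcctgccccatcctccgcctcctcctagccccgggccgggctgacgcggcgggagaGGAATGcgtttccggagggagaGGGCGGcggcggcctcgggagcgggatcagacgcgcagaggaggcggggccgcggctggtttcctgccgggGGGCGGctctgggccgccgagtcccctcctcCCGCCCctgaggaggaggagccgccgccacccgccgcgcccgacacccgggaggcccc

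Of the bases shown, 72.8% were G or C for ITGA4, 71.2% for ITGB8 and 78.4% for ITGB1, against a median of 58% over 35116 such windows. A search covered the E-box CACGTG bound by MITF and MYC, the E-box variant CATGTG, the AP-1 site TGANTCA, the TEAD site GGAATG and the GC box GGGCGG, on both strands. The ITGA4 window held none of these letters. The ITGB8 window held 2 GC boxes, and the ITGB1 window held 3 GC boxes and 1 TEAD site. The second ITGB1 window, at chr10:32935559-32935808 and downstream of the first, had 41.6% G or C and none of the motifs; the window printed is the one farther upstream. No searched motif overlapped another in these windows. Of all windows, 42.64% held a GC box, 11.89% a TEAD site, 9.417% CATGTG, 6.573% an AP-1 site and 6.345% CACGTG. Entries existed for 8 of the 10 subunits, 13 windows in all, and the only CACGTG among them lay in 1 of the windows of ITGA6. A match is a string of letters and is not evidence of a bound factor.

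ITGB1, the beta subunit shared by most of the alpha subunits here, was the most abundant member in all 4 sets and also the steadiest. Levels of different genes are compared here as 3' UMI counts, which are not scaled to transcript length and count a molecule once at its 3' end. ITGB1 stood at 98.2, 102, 112 and 116 CPM, and the highest set exceeded the lowest 1.18-fold (95% interval 1.14 to 1.22). Under another scaling of the totals (TMM), ITGB1 no longer had the smallest ratio. Intervals are exact 95% intervals on UMI counts throughout, and because no set was replicated they cover counting error only. After each cell was thinned to 10000 UMIs, 64.3%, 62.6%, 65.2% and 69.7% of cells had a UMI of ITGB1, and at the deposited depth 92.8% to 95.1% of cells did. Set 1, which had the highest level of all other subunits but ITGAV, had the lowest level of ITGB1.

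ITGA4, which pairs with ITGB1 to form a receptor for fibronectin and for the endothelial ligand VCAM1, was highest in set 1. It stood at 27.6, 11.8, 7.29 and 9.05 CPM. Set 1 exceeded set 3 by 3.79-fold (3.44 to 4.18) and set 2, the nearest other set, by 2.34-fold (2.16 to 2.54). The other sets were also apart: set 2 exceeded set 4 by 1.30-fold (1.18 to 1.45) and set 4 exceeded set 3 by 1.24-fold (1.10 to 1.40). In thinned cells a UMI of ITGA4 was found in 22.8% (21.1% to 24.7%), 10.3% (8.97% to 11.9%), 6.78% (5.75% to 7.93%) and 8.16% (7.03% to 9.41%). The share of cells therefore had the same order of sets as the CPM.

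ITGA3 and ITGA6 form laminin receptors with ITGB1. ITGA3 stood at 10.5, 4.24, 3.98 and 4.43 CPM, and set 1 exceeded set 4, the nearest, by 2.38-fold (2.09 to 2.73). Sets 2, 3 and 4 were not separated for ITGA3, since the intervals of the ratios of set 4 to set 2 (0.889 to 1.23) and of set 2 to set 3 (0.905 to 1.26) included 1. Thinned cells had a UMI of ITGA3 in 9.13%, 3.09%, 3.74% and 4.17% of cases. ITGA6 was the most abundant alpha member in sets 1 and 2, at 43.9, 33.5, 23.5 and 26.4 CPM. Its fall from set 1 to set 3 was 1.87-fold (1.76 to 1.98), with every pair of neighbouring sets apart by more than the counting interval. ITGA6 was thus graded over all sets, whereas ITGA3 parted set 1 from the others.

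ITGA2, which forms a collagen receptor with ITGB1, and ITGA5, which forms the main fibronectin receptor with it, were the least abundant members by UMIs among the alpha subunits of every set. ITGA2 stood at 3.42, 2.73, 2.91 and 3.13 CPM, and set 1 exceeded set 2 by 1.26-fold (1.04 to 1.52), with no neighbouring sets separated. ITGA5 stood at 4.04, 2.35, 2.98 and 3.27 CPM, and set 1 exceeded set 2 by 1.72-fold (1.42 to 2.09). Thinned cells had a UMI of ITGA2 in 1.86% to 3.24% of cases and of ITGA5 in 2.31% to 3.64%. At the deposited depth no set had a UMI of either gene in more than 12.3% of its cells.

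ITGAV, the alpha subunit of the vitronectin receptors and the partner of ITGB3, ITGB5 and ITGB8, had a different order of sets, at 24.6, 22.5, 28.9 and 28.3 CPM. Set 3 exceeded set 2 by 1.28-fold (1.20 to 1.37), and sets 3 and 4 did not differ beyond the counting interval (ratio 1.02, 0.958 to 1.08). ITGB5, a vitronectin receptor subunit, was the most abundant of its 3 special beta partners, at 33.4, 27.2, 32.9 and 28.2 CPM. Sets 1 and 3 were not separated for ITGB5 (ratio 1.02, 0.959 to 1.08), nor were sets 4 and 2 (1.04, 0.975 to 1.11). ITGB3, whose product joins ITGAV in the receptor tied to invasive melanoma, stood at 16.0, 12.1, 13.5 and 12.8 CPM. Its set 1 exceeded set 3, the nearest, by 1.18-fold (1.08 to 1.29), and the other neighbours were not separated.

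ITGB8, whose pair with ITGAV binds and activates latent TGF-beta, had the widest ratio of all 10 subunits. It stood at 12.3, 2.73, 5.36 and 5.79 CPM, and set 1 exceeded set 2 by 4.51-fold (3.86 to 5.29). Set 1 also exceeded set 4 by 2.12-fold (1.89 to 2.39), and set 3 exceeded set 2 by 1.97-fold (1.65 to 2.35), whereas sets 4 and 3 were not separated (1.08, 0.937 to 1.24). A UMI of ITGB8 was found in 12.1% (10.7% to 13.6%), 3.26% (2.49% to 4.20%), 5.38% (4.46% to 6.42%) and 5.77% (4.82% to 6.84%) of thinned cells. ITGA4 and ITGB8 were thus both highest in set 1 but had their lowest values in different sets.

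**Figure D1:**
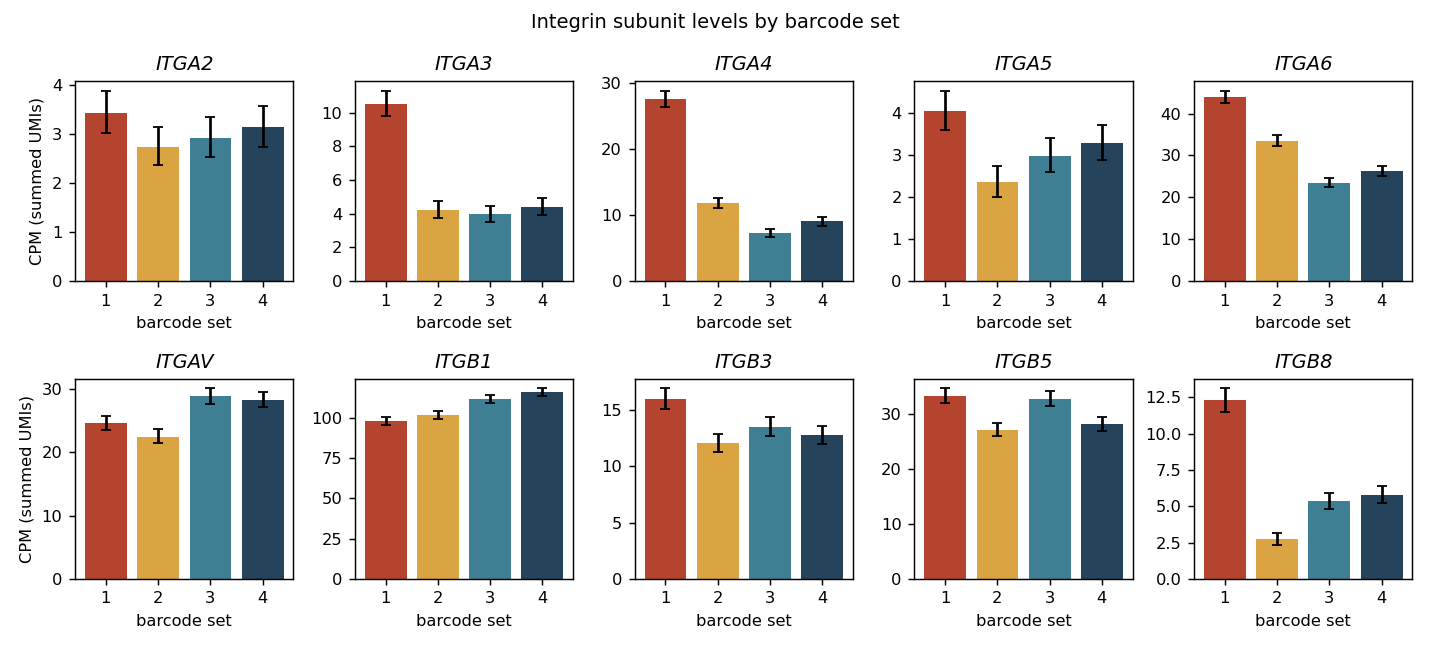
Level of each of the 10 integrin subunits, with the barcode set on the x axis and CPM of summed UMIs on the y axis (each panel has its own scale, starting at 0); bars are the value of 1 set and error bars its exact 95% Poisson interval. Set 1 stands above the others for ITGA3 (10.5 CPM), ITGA4 (27.6 CPM) and ITGB8 (12.3 CPM), while ITGB1 is lowest there (98.2 CPM).

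A gene was counted as spanning when its highest and lowest sets were at least 2-fold apart in log2(CPM + 1), a scale on which ratios of weak genes come out too small. It also had to reach 10 CPM in a set. Of the 10 subunits 8 reached that minimum, ITGA2 and ITGA5 being too low, and ITGA3 and ITGB8 reached it through set 1 alone. ITGA3, ITGA4 and ITGB8 spanned 2-fold, 3 of 8, against 434 of 7421 genes (5.85%) overall. Since 2 of the 3 entered only through the set in which they were high, the count is a description of these genes and not support for a property of the family. Without any minimum the same 3 of 10 subunits spanned. ITGA6 fell just short of the limit, with a difference of 0.87 on that log2 scale, and ITGA3 lay just beyond it, with 1.21.

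Set 1 was 2-fold above every other set for ITGA3 and ITGA4, as it was for 1.01% of all genes past the minimum, and ITGB8 missed this rule narrowly, with a difference of 0.97 to set 4. Between sets 1 and 2, ITGA3, ITGA4 and ITGB8 were 2-fold apart, against 3.18% of genes, and the same 3 were apart between sets 1 and 3, against 4.35%. Between sets 1 and 4, ITGA3 and ITGA4 were apart, against 4.12% of genes. On the log2(CPM + 1) scale no subunit was 2-fold apart between sets 2 and 3 (1.75% of genes), sets 2 and 4 (1.4%) or sets 3 and 4 (0.0539%). For ITGB8 this rests on the added 1 CPM: the plain ratio of set 2 to set 4 was 0.471 (0.395 to 0.560), a wider gap than 2-fold, while the difference of the log2(CPM + 1) values was -0.87. With each subunit centred on its own median of log2(CPM + 1), the 8 that reached the minimum had a median of 0.41 in set 1, and sets 2 to 4 had medians from -0.09 to -0.0039. The set 1 median was 0.28 over all 10 subunits and 0.20 over the 6 that did not enter through set 1 alone. Over all 7421 genes the median was 0.04 in set 1, and sets 2 to 4 had medians from -0.014 to 0.0031.

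**Figure D2:**
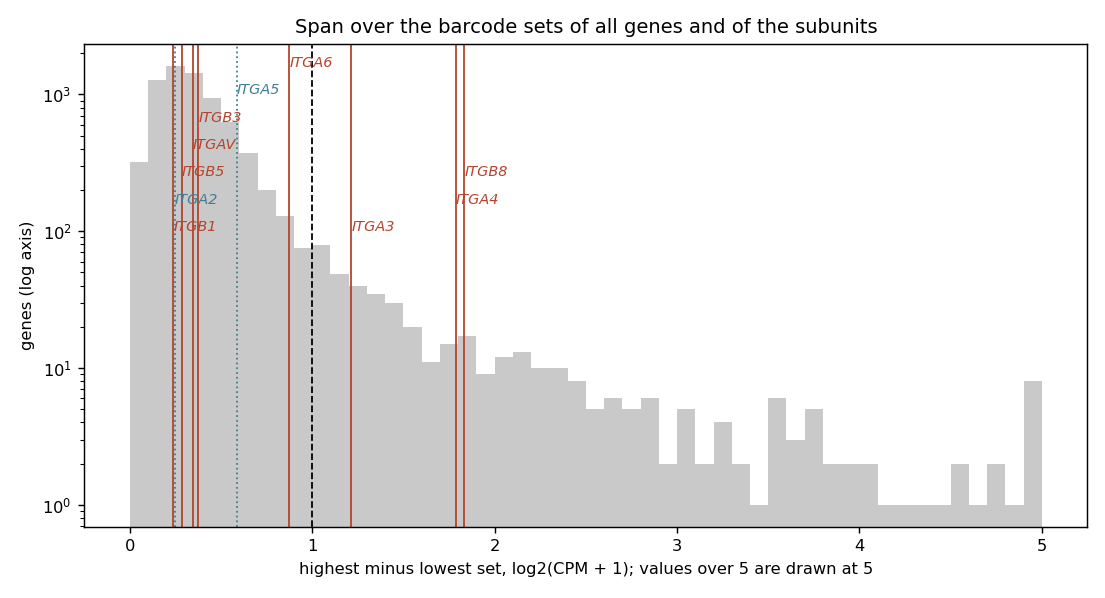
Difference between the highest and lowest set in log2(CPM + 1) on the x axis and the number of genes on a log y axis, for the 7421 genes past 10 CPM (grey); vertical lines mark the subunits, dotted for ITGA2 and ITGA5, which did not reach the minimum, and the dashed line is the 2-fold limit. ITGA3, ITGA4 and ITGB8 lie right of the limit and ITGA6 just left of it at 0.87.

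The make-up of the alpha subunit transcripts differed over the sets. The 6 alpha members summed to 114, 77.1, 69.6 and 74.6 CPM. ITGA4 contributed 24.2% (23.3% to 25.1%), 15.3% (14.4% to 16.3%), 10.5% (9.65% to 11.4%) and 12.1% (11.3% to 13.0%) of their UMIs. ITGAV ran the other way, at 21.6%, 29.2%, 41.5% and 38.0%, so the leading alpha subunit was ITGA6 in sets 1 and 2 (38.5% and 43.4%) and ITGAV in sets 3 and 4. ITGA6 made up 33.8% and 35.3% in those sets. The sum of the 6 alpha members over ITGB1 was 1.16, 0.756, 0.623 and 0.642, so only in set 1 did alpha member UMIs outnumber those of ITGB1. That excess depends on counting ITGAV, which also pairs with ITGB3, ITGB5 and ITGB8. In set 1 the 6 alpha members had 8176 UMIs, 1762 of them of ITGAV, and ITGB1 had 7033. Set 1 had both the highest alpha sum and the lowest ITGB1 level.

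Among the 4 beta members, ITGB1 supplied 61.4%, 70.8%, 68.3% and 71.3% of UMIs. Of the UMIs of ITGB3, ITGB5 and ITGB8 alone, ITGB8 made up 19.9% (18.8% to 21.1%), 6.49% (5.63% to 7.42%), 10.4% (9.40% to 11.4%) and 12.4% (11.3% to 13.5%). ITGB3 held a steadier share of these, between 26.0% and 28.8%. The sum of these beta subunits over ITGAV was 2.51, 1.87, 1.79 and 1.65, above 1 in every set. These are ratios of transcripts and give no measure of how much of each receptor the cells assembled.

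**Figure D3:**
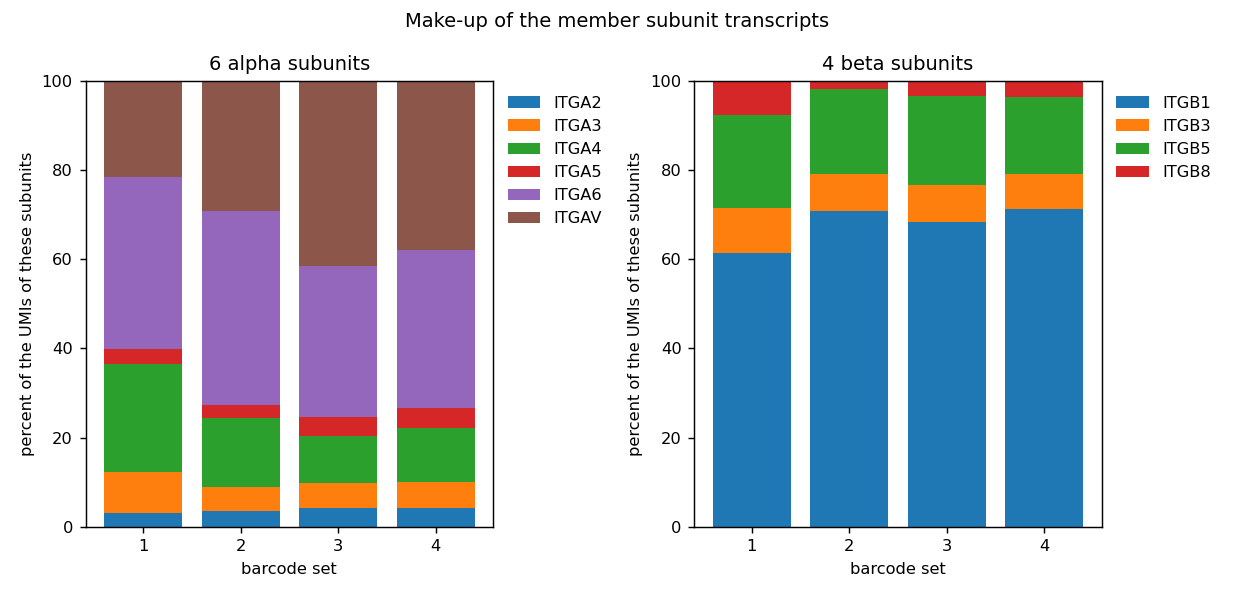
Share of each subunit, in percent of the summed UMIs of the 6 alpha members (left) and of the 4 beta members (right), on the y axis, with the barcode set on the x axis; each stacked bar is 1 set. The ITGA4 segment is widest in set 1 (24.2%), the ITGAV segment widest in set 3 (41.5%), and the ITGB8 segment widest in set 1 (7.69%).

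Single cells were then read for possible receptor pairs, as the share of thinned cells with a UMI of both subunits. Because 10000 UMIs catch few molecules of a gene at these levels, such shares miss many cells that contain both transcripts. ITGA4 and ITGB1 were found together in 14.3% (12.8% to 15.8%), 6.81% (5.68% to 8.08%), 4.63% (3.78% to 5.61%) and 5.63% (4.69% to 6.69%) of cells. At the deposited depth the same shares were 52.8%, 35.0%, 19.6% and 24.5%. The ITGA6-ITGB1 pair was the most frequent in sets 1 and 2, at 24.3%, 18.9%, 15.1% and 16.8%. The ITGAV-ITGB1 pair was found in 15.0%, 13.0%, 15.6% and 17.4%, which exceeded ITGA6-ITGB1 in sets 3 and 4 by less than the counting intervals. ITGA3-ITGB1 was found in 6.19% of set 1 cells (5.20% to 7.31%) and in 1.86% to 2.91% of the others. The pairs of ITGB1 with ITGA2 or ITGA5 were found in 1.24% to 2.46% of cells.

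Among the vitronectin and TGF-beta receptors, ITGAV and ITGB5 were found together most often, in 7.33%, 4.50%, 6.78% and 6.47% of cells. ITGAV and ITGB3 were found together in 2.88%, 2.59%, 3.37% and 3.42%, with intervals that overlap in all 4 sets. ITGAV and ITGB8 were found together in 2.60% (1.96% to 3.37%), 1.12% (0.688% to 1.73%), 1.31% (0.872% to 1.89%) and 1.78% (1.26% to 2.44%). For 35 of the 36 values (9 pairs in 4 sets), the product of the single shares lay within the interval of the share with both. The exception was ITGAV with ITGB8 in set 2, found together 1.70 times as often as the product, from 20 cells; with another random draw in the thinning this was 1.41 times, from 16 cells, and the interval then included the product. That second draw also gave 1.08% in place of 1.78% for ITGAV with ITGB8 in set 4, so sets 2 to 4 are not ordered by this share. The product comes from the same cells as the share with both and moves with it, so this interval is wide for the comparison. It therefore cannot decide whether the subunits of a pair occur independently in cells. At this depth the share with both was 0.822 to 1.70 times the product over the 36 values.

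**Figure D4:**
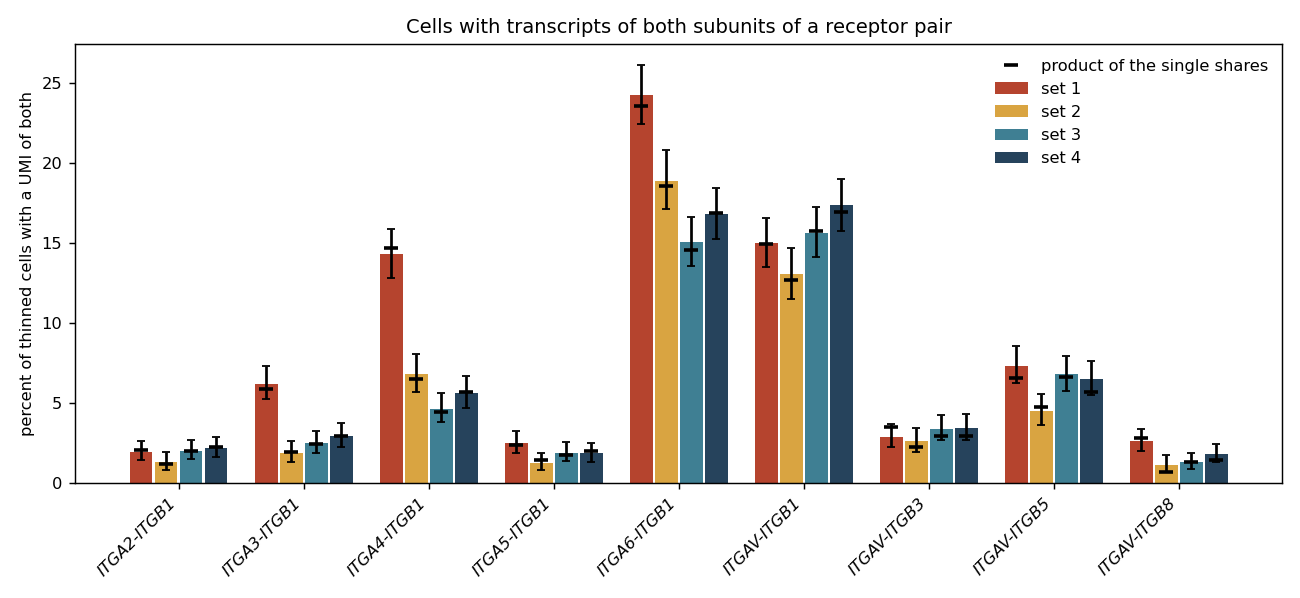
Percent of cells, thinned to 10000 UMIs, with a UMI of both subunits (y axis) for 9 receptor pairs (x axis); bars are barcode sets, error bars exact 95% binomial intervals, and black dashes the product of the single shares. ITGA4 with ITGB1 reaches 14.3% in set 1 and at most 6.81% elsewhere, and the dashes lie within the error bars for 35 of 36 bars.

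Counting all members in a cell, thinned cells had a UMI of 2.19 ± 1.23 (SD over cells) of the 10 subunits in set 1, and of 1.68 ± 1.06, 1.73 ± 1.06 and 1.78 ± 1.07 in sets 2 to 4. ITGB1 together with at least 1 of the 6 alpha members was found in 43.5%, 33.9%, 33.3% and 36.4% of cells. No member was found in 6.71% of set 1 cells and in 9.24% to 11.7% of the others. The variance of the thinned counts over their mean (the Fano factor) lay between 0.968 and 1.22 for the 40 values of the 10 subunits in 4 sets. In 5 of the 40 it exceeded the 95th percentile of genes of like mean: ITGA5 in sets 1 to 3, ITGA3 in set 1 and ITGB8 in set 3. The highest was ITGA5 in set 1, at 1.22 against a median of 1.01 for genes of like mean, so its few UMIs were less evenly spread over cells than those of such genes. That value rests on few cells, since 0.284% of thinned set 1 cells had 2 or more UMIs of ITGA5. All cells come from related melanoma lines, so no cell type that should lack these genes was present to measure free RNA, and its part in the shares of cells was not tested.

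The subunits also differed by assigned cell cycle phase. Phases came from S and G2M gene scores of the thinned cells, and levels are CPM of the cells of a phase. ITGB8 was lower in G2M than in G1 cells in all 4 sets. It stood at 15.0, 3.12, 6.62 and 8.59 CPM in G1 cells and at 7.52, 1.47, 3.90 and 4.44 CPM in G2M cells. The ratios of G2M to G1 were 0.502 (0.409 to 0.612), 0.470 (0.296 to 0.735), 0.589 (0.438 to 0.789) and 0.517 (0.393 to 0.680), so each interval lay below 1. ITGA3 was also lower in G2M cells, with ratios of 0.553 to 0.729, and its interval lay below 1 in 3 of 4 sets, all but set 3. It was likewise lower in S than in G1 cells, with ratios of 0.668 to 0.798 and an interval below 1 in the same 3 sets. The weak ITGA2 and ITGA5 had G2M ratios below 1 in 4 of 4 sets, at 0.607 to 0.936 and 0.690 to 0.894. Their intervals lay below 1 in 2 sets and 1 set. ITGA6 had G2M ratios of 0.906 to 1.05, with an interval below 1 in 1 set, and an interval above 1 in S cells of 1 set. ITGB5 was somewhat higher in S than in G1 cells, with ratios of 1.10 to 1.20 and an interval above 1 in 4 of 4 sets.

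ITGAV and ITGB3 had no interval apart from 1 in either phase, and ITGB1 had 1, in S cells of set 4. Their ratios lay between 0.900 and 1.12. ITGA4 was not lower in G2M cells beyond the counting interval in any set, with ratios of 0.928 to 1.20. In G1 cells alone the ratio of set 1 to set 3 for ITGA4 was 2.11 on the log2 scale, against 1.92 over all cells. G1 cells made up 37.5% of set 1 and 20.4% to 29.4% of the others, and the median G1 cell had fewer UMIs than the median S or G2M cell in every set. ITGA3, ITGA4 and ITGB8 spanned 2-fold over the sets also when G1 cells alone were used.

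**Figure D5:**
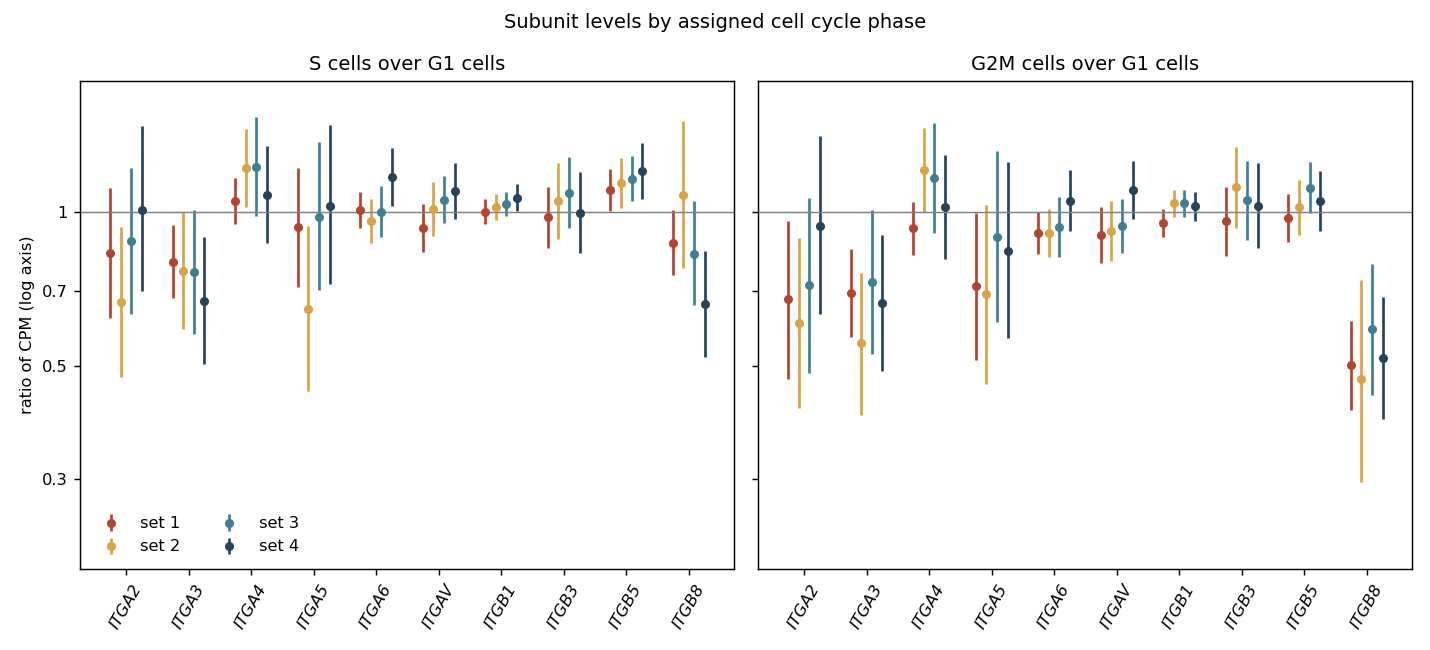
Ratio of CPM in S cells (left) and G2M cells (right) to CPM in G1 cells, on a log y axis, for the 10 subunits (x axis); points are barcode sets and bars exact 95% intervals for counting error. ITGB8 in G2M cells lies between 0.470 and 0.589 in the 4 sets, and ITGB5 in S cells between 1.10 and 1.20.

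The other integrin subunits were mostly weak. Of 16 further subunit genes listed, 10 were in the table and 1, ITGAE, reached 10 CPM. ITGAE stood at 187, 196, 177 and 192 CPM, above ITGB1 in every set on the UMI scale. Its known partner ITGB7, which can also pair with ITGA4, had 4, 0, 3 and 0 UMIs in all. The limit taken for a count of 0 is 3 UMIs, 0.0417 CPM in set 2 and 0.0421 in set 4. Exons of ITGAE overlap those of HASPIN (in the table under its older symbol GSG2) on the opposite strand in the GENCODE v29 annotation, and the sources used here do not state whether counting used strand, so reads of both cannot be told apart with certainty. Annotated transcripts on the opposite strand likewise overlap exons of ITGA5, ITGA6, ITGAV, ITGB1 and ITGB8. For ITGB3 the exon overlap is with AC068234.1, annotated as protein-coding on the same strand and absent from the count table. ITGB4, the other partner of ITGA6, stood at 0.461 to 0.660 CPM, and ITGB6, a further partner of ITGAV, had at most 5 UMIs in a set.

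Some weak subunits had an order of sets unlike that of ITGA4. ITGA9, an ITGB1 partner that binds tenascin C and osteopontin, was lowest in set 1, at 0.670, 2.14, 2.35 and 2.25 CPM. Set 2 exceeded set 1 by 3.20-fold (2.30 to 4.52) for ITGA9. ITGAX, a subunit of leukocyte integrins, stood at 3.18, 4.59, 1.47 and 1.50 CPM. The 4 of 6 leukocyte markers in the table summed to at most 1.11 CPM in any set.

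Of 39 ligand genes listed, 36 were in the table and 17 reached 10 CPM. Of these 7 spanned 2-fold, against 5.85% of all genes, and 6 of the 7 were highest in set 1, as were 206 of the 434 spanning genes overall (47.5%). SPP1 and CTGF reached the minimum through set 1 alone and FBLN1 through set 3 alone, so this count too is a description and no support for a property of the list. FN1, fibronectin, the ligand of the ITGA4 and ITGA5 receptors, stood at 418, 180, 243 and 211 CPM. SPP1, osteopontin, a ligand of ITGAV, ITGA4 and ITGA9 receptors, stood at 44.4, 0.876, 3.85 and 3.93 CPM, so that like ITGB8 it was highest in set 1 and lowest in set 2. CTGF, a secreted matricellular protein, stood at 15.9, 7.27, 2.80 and 3.15 CPM. TNC, a matrix glycoprotein bound by ITGA9 and ITGAV receptors, was higher in sets 1 and 2 (38.7 and 33.7 CPM) than in sets 3 and 4 (14.6 and 16.8 CPM). FBLN1, fibulin, a matrix protein, ran the other way, at 0.391, 2.25, 16.1 and 8.02 CPM. The remaining 2 of the 7 were CYR61 and NOV. The centred median of the 17 was 0.22 in set 1, and sets 2 to 4 had medians from -0.08 to 0.03 on the log2 scale.

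Of 36 adaptor and signalling genes, 29 of the 34 in the table reached 10 CPM, and FERMT3 and TNS1 were among those that spanned 2-fold. FERMT3, kindlin-3, which binds beta tails and is best known from blood cells, stood at 27.3, 4.45, 11.3 and 12.3 CPM, highest in set 1 and lowest in set 2 like ITGB8. TNS1, tensin, which links beta tails to actin, was lowest in set 1, at 1.77, 3.39, 12.8 and 9.34 CPM. DAB2, a clathrin adaptor for integrin uptake, stood at 18.0, 20.4, 29.7 and 28.7 CPM.

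TLN1, FERMT2 and ILK were named whatever their values, and none of them spanned 2-fold. TLN1, talin, which activates beta subunits from inside the cell, stood at 46.0, 42.2, 40.0 and 42.5 CPM. ILK, which joins beta tails to actin, stood at 64.0, 65.0, 67.0 and 67.8 CPM, and FERMT2, the widely expressed kindlin, at 13.1, 9.96, 8.30 and 8.72 CPM. The centred median of the 29 adaptors that reached 10 CPM was 0.08 in set 1, and sets 2 to 4 had medians from -0.05 to 0.0040 on the log2 scale.

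No gene of the trafficking list spanned 2-fold (0 of 12 measured), and none of the lateral partners did (0 of 12), counts that lie near the 5.85% of all genes. AP2M1, a subunit of the clathrin adaptor, stood at 323, 236.5, 199 and 206 CPM. RAB5A, a GTPase of early endosomes, stood at 41.0, 27.8, 25.6 and 28.2 CPM, and RAB21, which binds alpha tails, at 27.3, 20.3, 18.1 and 19.4 CPM. These 3 genes were highest in set 1, and VPS26A of the retromer was lowest there, at 38.5, 52.1, 52.5 and 55.6 CPM. The 4 were named for the widest spans in the list and do not stand for uptake or retromer genes as groups. DAB2, the uptake adaptor named above, was also lowest in set 1. Of the lateral partners, CD44, the hyaluronan receptor, stood at 380, 206, 308 and 290 CPM. SLC3A2, the heavy chain of CD98, which binds beta subunits, stood at 234, 139, 189 and 174 CPM. BSG, basigin, was lowest in set 1 (294, 349, 503 and 487 CPM), and PLAUR, the urokinase receptor, was highest there (27.2, 16.5, 16.5 and 17.7 CPM).

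The genes nearest in pattern were sought for the subunits that spanned 2-fold, by Euclidean distance of log2(CPM + 1) centred on each gene's mean over the 4 sets. With 4 points from 4 single libraries, likeness of pattern is a description. For ITGA3 these were SH3YL1 (distance 0.05), SH3BP5 (0.11) and ROBO1 (0.13). For ITGA4 they were SLC6A6 (0.13), AC010987.6 (0.16) and FAM46A (0.19). For ITGB8 they were RP11-232D9.3 (0.23), SLC1A4 (0.26) and PLAT (0.36). SLC6A6, the taurine transporter, stood at 16.6, 7.41, 4.27 and 6.00 CPM, the same order of sets as ITGA4. PLAT, which encodes a plasminogen activator, was highest in set 1 and lowest in set 2 as ITGB8 was (51.9, 16.6, 26.3 and 21.8 CPM).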

How the data were processed

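Single-cell 3' RNA libraries of 4 melanoma lines, 1 per line, were made with version 2 chemistry, per the labels' protocols. The tools named are Cell Ranger 3.0.0 and Seurat 3.0, and the builds hg19 and mm10, per the submitters' processing notes; the roles of the builds are not given in the sources used here. The authors deposited UMI counts per gene and cell, and these counts were used as deposited; the authors also deposited a natural log table, which was not used. Every cell had 3001 to 6999 detected genes. Counts were summed per barcode suffix and divided by the total (CPM). No test was run, since cells are not replicates. Intervals are 95% exact Poisson, conditional binomial or Clopper-Pearson intervals (scipy 1.17.1) and cover counting error only. Cells were thinned to 10000 UMIs for shares and for phases (scanpy 1.11.5), which left out 6, 1, 1 and 1 cells. No doublet caller was run and doublets and free RNA were not removed. TMM scaling used edgeR 4.0.16. Genes of like mean are those within 20% of the mean. The span rule was tested on simulated counts. Named were all members, the 4 genes of widest span in each of 5 lists, FN1, TLN1, FERMT2 and ILK, and the 3 genes nearest to each spanning member; ITGA2B, ITGA9, ITGAX, ITGB4, ITGB6, ITGB7, CYR61, NOV, LUM and MMP1 were named after their values were seen. A gene that this rule names in the adaptor list is not reported here. Members and lists were chosen with earlier results of these data known.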

Additional observations from a re-analysis of the deposited data

How the results depend on the processing

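The count of subunits spanning 2-fold was 3 of 8, and 434 genes spanned overall. With a pseudocount of 10 CPM these counts were 1 (ITGA4) and 198, a step that by construction shrinks the ratios of weak genes. With no minimum, 3 subunits and 1012 genes spanned. With a minimum of 50 CPM, which ITGB1 alone among the subunits reached, 0 subunits and 126 genes spanned. ITGA3, ITGA4 and ITGB8 spanned under TMM scaling, with mitochondrial and ribosomal protein genes left out of the totals, in G1 cells alone, in cells with under 10% mitochondrial UMIs, and in cells whose barcode occurs under 1 suffix alone (an alternative chosen after seeing the data). Leaving those genes out raised the median of all genes by 0.48 to 0.53 on the log2 scale in every set. Of 60 log2 ratios of a subunit under other settings, 57 stayed within their interval, 3 moved and none changed sign: for ITGB1, 0.24 became 0.32 under TMM scaling and 0.17 in G1 cells, and for ITGA4, 1.92 became 2.11 in G1 cells. Under TMM scaling ITGB1 no longer had the smallest ratio, since those of set 1 to set 2 were 0.26 for ITGA2 and 0.22 for ITGB5. Shares of cells depend on depth by construction and moved in 79 of 80 values at the deposited depth or at 5000 UMIs. With another random draw in the thinning, 3 of 36 shares of cells with both subunits moved beyond their interval. No paired analysis was possible because there was 1 library of each line and no set could be tied to one. Depth limits ITGA2 and ITGA5 most, with 169 to 289 UMIs in a set.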

Other observations

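Within set 1, cells could be split by MMP1, the interstitial collagenase, which had a UMI in 41.8% of its thinned cells and in at most 0.891% of the cells of any other set. This split was chosen after the data were seen, and it compares cells of 1 library. ITGA3 stood at 14.2 CPM in the 884 cells with MMP1 and at 7.92 CPM in the 1231 cells without it, a ratio of 1.79 (1.55 to 2.07). ITGB8 stood at 15.1 and 10.2 CPM (1.47, 1.29 to 1.69), ITGA4 at 30.6 and 25.4 CPM (1.21, 1.10 to 1.32) and ITGA5 at 4.74 and 3.52 CPM (1.35, 1.06 to 1.71). The intervals of the other 6 subunits included 1, among them ITGB1 (99.9 and 96.8 CPM) and ITGA6 (44.6 and 43.4 CPM). Of the cells with MMP1 24.4% were assigned to G2M, and of those without it 24.0%, and the median cell had 34119 and 33247 UMIs. ITGA3, ITGA4 and ITGB8, higher in CPM in the cells with MMP1, are also the subunits that spanned 2-fold over the sets. In the cells without MMP1 their levels were 7.92, 25.4 and 10.2 CPM, above those of sets 2 to 4. The part of the cells with MMP1 in the set 1 levels was not tested. Thinning hides MMP1 in many cells, since 64.6% of set 1 cells had a UMI of it at the deposited depth. In the 750 cells without one at that depth, ITGA3, ITGA4 and ITGB8 stood at 7.33, 24.0 and 10.1 CPM. In the cells with one they stood at 12.1, 29.3 and 13.3 CPM. ITGA5 stood at 3.77 CPM without and 4.16 CPM with MMP1 at that depth, a smaller gap than in the split of thinned cells.

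ITGA2B, the platelet alpha subunit that pairs with ITGB3, had 3, 18, 36 and 26 UMIs in sets 1 to 4, while the platelet marker list, of which it is part, summed to 0.306 to 0.658 CPM.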
